A study of Mus musculus with 45 samples.

Results

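The genes described here are 46 antiviral interferon-stimulated genes of the mouse, among them the sensors of viral RNA, the ISG15 conjugation system, the IFIT, OAS and Mx families and factors that restrict viral entry, copying or release. They were chosen by name. Each symbol was looked up among the gene symbols of the deposited expression table and then by its Ensembl identifier in the count table, and all 46 of 46 were found among 29307 genes. The study asked how human variants of FAMIN, a purine nucleoside enzyme encoded by Lacc1, affect macrophages. Bone marrow-derived macrophages (BMDM) were grown for 6 days in 100 ng/mL M-CSF from 15 C57BL/6N mice aged 6 to 10 weeks, 5 of each genotype. All mice were germline knock-ins of a human variant, so each genotype carried an engineered allele. Faminp.254I is the non-risk variant and served as the reference, Faminp.254V is the common variant linked to Crohn's disease and leprosy risk, and Faminp.284R is the variant of monogenic juvenile arthritis and bowel inflammation. The study states that C57BL/6 mice themselves express the 254V form. Each mouse gave 3 cultures, which were left unstimulated (M0), polarized over 24 h with IFN-γ at 50 ng/mL together with LPS at 20 ng/mL (M1) or polarized over 24 h with IL-4 at 20 ng/mL (M2), and these made 45 RNA sequencing libraries in 9 groups of 5. Mice are numbered here by the replicate number of the labels. Libraries of the same genotype and number were taken to come from the same mouse, which is an inference from the labels. The 15 mice and the 3 cultures of each rest on it. How many founder clones stand behind each knock-in line was not given in the sources used here, and gene counts do not show which allele a library carries.

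Interferon-stimulated genes are a first line of defence against viruses. Type I interferon binds the receptor pair Ifnar1 and Ifnar2, and the kinases Jak1 and Tyk2 then set off formation of the factor ISGF3, which holds Stat2 and Irf9. ISGF3 binds the interferon-stimulated response element (ISRE) in promoters. IFN-γ acts through another receptor and on promoters with the gamma-activated sequence (GAS), whereas LPS acts through Toll-like receptor 4 and leads macrophages to release IFN-β. IL-4 acts through Stat6. Macrophages in culture also keep a low, steady expression of these genes without added cytokine, in part through small amounts of IFN-β that they make themselves.

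Promoter stretches that hold the ISRE core are shown for 5 members. They carry the letters of that element, and the 5 genes changed differently with polarization. Oasl1, Ifi44, Ddx58 and Samhd1 were also considered and left out, as none had a match lying wholly upstream of the start. Isg15 and Ifit1 stand for strongly inducible members, Ifit3 and Rsad2 for members with a large difference between M0 and M2, and Ifitm2 for the member that was lower in M1 than in M0. Sequences are from RefSeq on GRCm38.p6 and run 5′ to 3′ on the strand of the gene. All 5 stretches lie upstream of the transcription start, the nearest 18 bases and the farthest 175 bases before it. Capitals mark matches to the ISRE core, here GAAANNGAA on either strand, and adjoining matches overlap in a single run of capitals.
Isg15 chr4:156200856-156200916 (minus strand): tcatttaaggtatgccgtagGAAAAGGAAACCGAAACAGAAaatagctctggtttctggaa
Ifit1 chr19:34640760-34640833 (plus strand): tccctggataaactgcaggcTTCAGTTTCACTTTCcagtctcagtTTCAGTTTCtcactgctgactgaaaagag
Ifit3 chr19:34583354-34583455 (plus strand): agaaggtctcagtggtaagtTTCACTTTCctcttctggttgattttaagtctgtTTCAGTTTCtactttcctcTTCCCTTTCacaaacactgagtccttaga
Rsad2 chr12:26456543-26456591 (minus strand): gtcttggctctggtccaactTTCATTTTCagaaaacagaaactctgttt
Ifitm2 chr7:140955979-140956027 (minus strand): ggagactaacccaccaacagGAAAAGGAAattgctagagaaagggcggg

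The stretches of Isg15, Ifit1 and Ifit3 each hold 3 matches, and those of Rsad2 and Ifitm2 hold 1. RefSeq promoter windows, from 250 bases before to 50 bases after a transcription start, were at hand for 34 of the 46 members. The core stood in 18 of these 34 genes (52.9%) and in 9.76% of the 27025 genes with a window of the same length. The GAS letters TTCNNNGAA stood in 9 of 34 members (26.5%) and in 9.55% of all genes, and 2 of the GAS matches in members, those of Ifitm3 and Bst2, overlapped an ISRE match. GAS half-sites with the wider spacing bound by Stat6 stood in 5 of 34 members (14.7%) and in 8.01% of all genes. A match describes letters in a window and not binding. No window was at hand for Dhx58, Usp18, Oas2, Mx1, Mx2, Parp9, Parp14, Ifi204, Zbp1, Ifi27l2a, Rtp4 and Tor3a. Among the members without an ISRE match in this window were Ifit2, Oasl1, Cmpk2 and Samhd1, and all 4 differed between M1 and M0 in the comparison that follows.

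Levels are given in CPM, the read count divided by the library size after trimmed-mean scaling (TMM). The smallest library held 17239009 counted reads, the median one 27553642 and the largest 43740283. A single member had between 12 and 160602 reads in a library, so counting error was small beside the spread between mice for all but the lowest members. The 6 macrophage markers summed to between 5432 and 11008 CPM in each library, and Adgre1 ranged from 2589 to 4055 CPM in M0. Single markers could be much lower. In M2 Mertk was at 42.8 to 97.7 CPM, and Fcgr1 at 34.8 to 55.1 CPM outside Faminp.254I mouse 4. Cd3e of T cells did not exceed 0.122 CPM in any library. Cd4, another T cell marker, was at 20.5 to 46.6 CPM in M0. Other marker lists were not all near 0. In M0 the neutrophil and granulocyte precursor list summed to 19.4 to 204 CPM and the stromal list to 15.4 to 83.5 CPM. The conventional dendritic cell list summed to at most 2.05 CPM in M0 and to 208 to 432 CPM in M1. Nearly all of the M1 sum was Clec9a, at 198 to 422 CPM, and Flt3 did not exceed 0.317 CPM there. The B cell, mast cell and erythroid lists did not exceed 0.487 CPM in any library. Cxcl9, an IFN-γ-induced chemokine, had a median of 0.397 CPM in M0 and 3262 CPM in M1, and the M2 marker Retnla a median of 3279 CPM in M2. A single M1 library, that of Faminp.254I mouse 5, also held the M2 markers Arg1 at 40.8 CPM and Retnla at 49.1 CPM, against at most 0.912 and 0.249 CPM in the other 14. The M0 library of Faminp.254I mouse 4 stood apart from the other 14 M0 libraries in the genes described here. The main medians and numbers of members are given with and without it. Fold changes of single members and of pathway genes include it unless stated. Libraries of bulk cells do not tell fewer cells with a transcript from less of the transcript per cell.

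**Figure D1:**
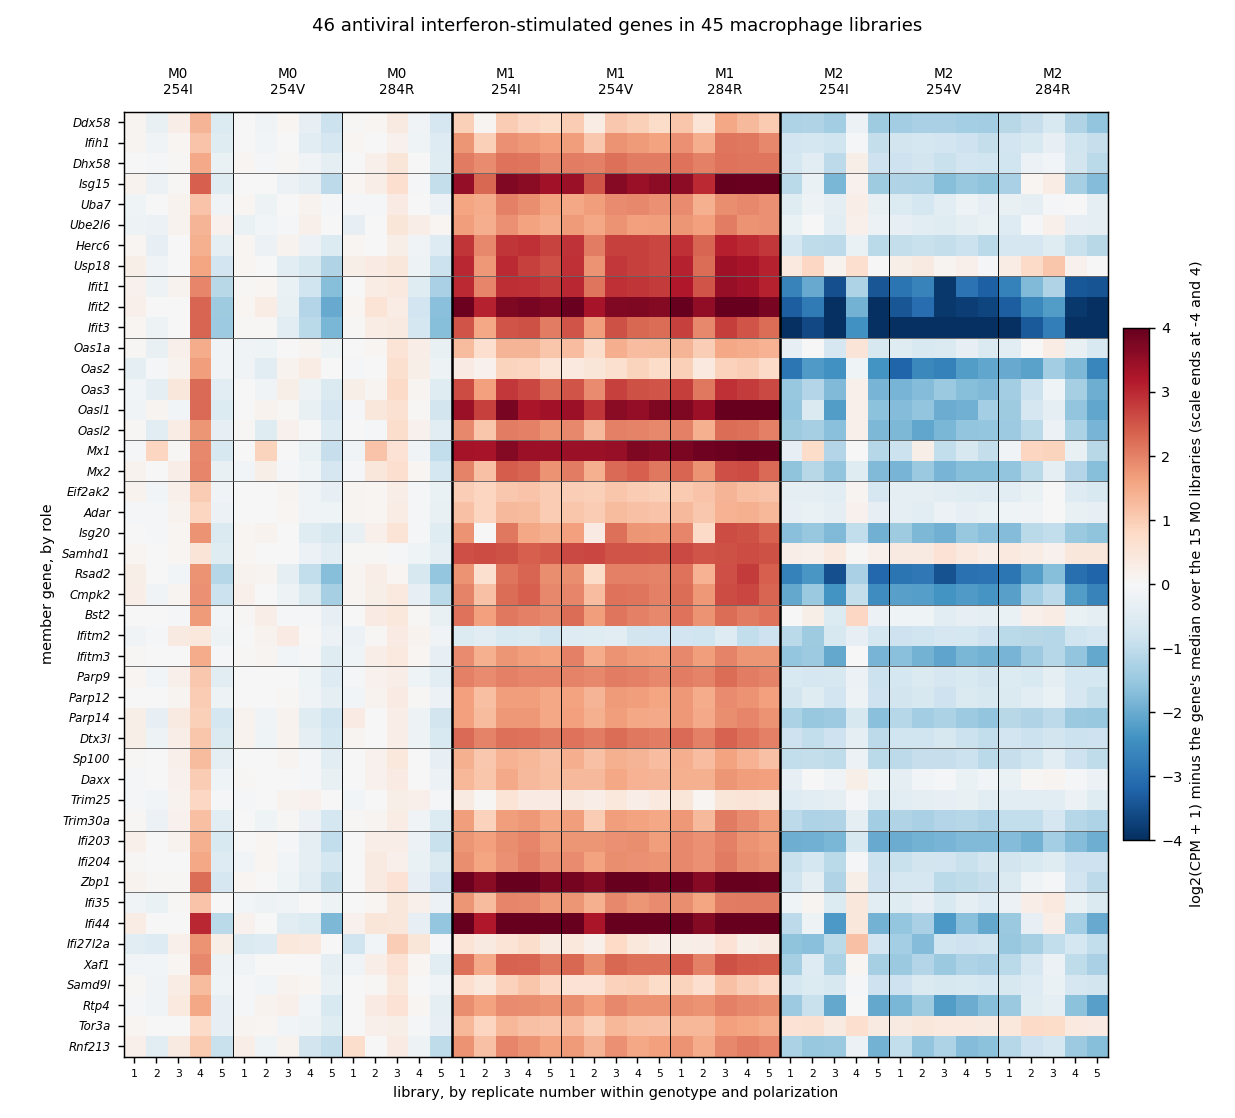
Heat map of the 46 members (rows, ordered by role) in the 45 libraries (columns, by polarization, genotype and mouse number), with colour giving log2(CPM + 1) minus the gene's median over the 15 M0 libraries. M1 libraries are red for nearly all members and M2 libraries blue for most, and the M0 column of Faminp.254I mouse 4 is red from top to bottom.

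Against M0, M1 macrophages held more of nearly the whole family. By the quasi-likelihood test of edgeR, adjusted over 12905 genes after Benjamini and Hochberg, 45 of the 46 members differed between M1 and M0 at an adjusted p under 0.05, 44 of them higher and 1 lower, where 77.3% of all genes were called, 37% higher and 40.3% lower. The median log2 fold change was 1.77 over the members and -0.03 over all genes. All 15 M1 libraries stood above all 15 M0 libraries for 23 members, against 15.2% of all genes, and below them for 1, Ifitm2, against 13.5%. Without the M0 library of Faminp.254I mouse 4 the M1 libraries stood wholly above M0 for 39 members and 17.0% of all genes, and the median log2 fold change was 1.93. Log2 fold changes of polarization are means over the 3 genotypes ± SE from the fit of all 45 libraries, in which cultures of a mouse enter as separate samples. The comparisons of M1 and of M2 with M0 share the M0 libraries.

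The RNA sensors, which start the antiviral response on meeting viral RNA in the cytosol, rose in M1 in 3 of 3 cases. Ddx58, which encodes RIG-I, had lowest, median and highest levels of 52.2, 95.6 and 244 CPM over the 15 M0 libraries and 103, 188 and 284 CPM over the 15 M1 libraries. Its rise was the smallest of the sensors at 0.90 ± 0.15 (1.86-fold), and the ranges overlapped. Ifih1, which encodes MDA5, went from 44.2, 71.6 and 159 CPM to 141, 242 and 316 CPM (log2 fold change 1.72 ± 0.12). Dhx58, which encodes the regulatory sensor LGP2, rose most (1.96 ± 0.14, 3.89-fold), and its lowest M1 level of 255 CPM was above its highest M0 level of 198 CPM.

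The ISG15 system attaches a ubiquitin-like protein to newly made proteins, and 5 of its 5 members rose in M1. Isg15, the modifier itself, had lowest, median and highest levels of 13.6, 29.3 and 158 CPM in M0 and 146, 359 and 532 CPM in M1, and rose 10.1-fold (3.34 ± 0.27), the largest change of the group. Only the M0 library of Faminp.254I mouse 4 reached into the M1 range. Uba7, the activating enzyme, and Ube2l6, the conjugating enzyme, rose by 1.68 ± 0.10 and 1.56 ± 0.11, the latter the smallest change of the group. Herc6, the mouse ISG15 ligase, rose by 2.73 ± 0.14. Usp18, which removes ISG15 and also damps signalling at Ifnar2, went from 11.5, 27.9 and 85.5 CPM to 94.5, 203 and 299 CPM with no overlap (log2 fold change 2.80 ± 0.19).

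IFIT proteins bind viral RNA ends and block their translation, and 3 of 3 rose in M1. Ifit2 rose most, from a median of 192 to 2599.6 CPM (3.67 ± 0.30, 12.8-fold). Ifit1 had lowest, median and highest levels of 16.0, 54.6 and 213 CPM in M0 and 212, 425 and 628 CPM in M1 (2.90 ± 0.28). Ifit3 rose least, from 19.99, 73.4 and 369 CPM to 219, 421 and 506 CPM (2.33 ± 0.29). Of the 50-base words of its exons 51.2% also occur in the neighbouring copy Ifit3b, so its reads may be shared between the copies.

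OAS enzymes make the short 2′-5′ oligoadenylates that switch on RNase L, and 5 of 5 family members rose in M1, by very different amounts. Oasl1, a family member without that activity that restrains Irf7, rose most, from 12.9, 22.1 and 111 CPM (lowest, median and highest) to 153, 264 and 511 CPM (3.43 ± 0.25, 10.8-fold), and the ranges did not overlap. Oas2 rose least, from a median of 97.8 to 162 CPM (0.48 ± 0.20, adjusted p = 0.033 by edgeR), and this call was lost with library totals only (0.37, adjusted p = 0.1004). It was also lost when Faminp.254I mouse 3 or 5 or Faminp.284R mouse 1 or 4 was left out (adjusted p = 0.0511 to 0.0691), of which Faminp.254I mouse 5 is the animal whose M1 library held M2 markers. Oas1a went from 45.6, 55.9 and 157 CPM to 89.4, 137 and 164 CPM (1.09 ± 0.14), and 57.6% of its 50-base words occur in Oas1g or Oas1b, so its counts may mix the copies. Oas3 rose by 2.25 ± 0.23 and Oasl2 by 1.72 ± 0.20.

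Mx proteins are dynamin-like GTPases that trap viral nucleocapsids, and both rose in M1. C57BL/6 mice carry a truncated, inactive Mx1 allele, and its transcript was still measured. Mx1 had lowest, median and highest levels of 27.3, 55.6 and 212 CPM in M0 and 555, 709 and 1077 CPM in M1 (3.32 ± 0.25, 10.01-fold), with no overlap. Mx2 rose by 2.03 ± 0.20 (4.09-fold) from a much lower median of 7.07 CPM.

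Among the enzymes that act on RNA, nucleotides and translation, 6 of 6 rose in M1. Samhd1, which removes the deoxynucleotides that viruses need to copy DNA, rose most (2.60 ± 0.07, 6.07-fold). Its levels ran from 536 to 1077 CPM in M0 and from 3950.4 to 4808 CPM in M1. Eif2ak2, which encodes the translation-blocking kinase PKR, rose least (0.99 ± 0.08). Rsad2, which encodes viperin and makes a chain-terminating nucleotide, had lowest, median and highest levels of 45.6, 151 and 529 CPM in M0 and 237, 613 and 1052 CPM in M1 (2.04 ± 0.26). Cmpk2, a mitochondrial nucleotide kinase encoded next to Rsad2, went from 24.4, 62.7 and 227 CPM to 144, 279.7 and 408 CPM (2.05 ± 0.22). Isg20, an exonuclease, rose by 1.82 ± 0.24 and Adar, an RNA-editing enzyme, by 1.13 ± 0.07.

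The membrane restriction factors did not move together in M1, where 2 rose and 1 fell. Bst2, which encodes tetherin and holds budding virions at the cell surface, went from 121, 154 and 499 CPM (lowest, median and highest) to 480, 659 and 726 CPM, the largest rise of the 3 (1.84 ± 0.14). Ifitm3, which blocks fusion of virions with endosomes, went from 227, 316 and 885 CPM to 843, 1066 and 1285 CPM (1.61 ± 0.16). Ifitm2, its close relative, ran from 74.8 to 119.8 CPM in M0 and only from 44.9 to 66.1 CPM in M1, and fell by 0.73 ± 0.08 (1.65-fold). The fall held under every scaling tried, although 48.5% of the 50-base words of Ifitm2 occur elsewhere among annotated transcripts.

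The remaining groups rose in M1 with 1 exception. The ADP-ribosylation enzymes rose in 4 of 4 cases, from Parp12 (1.56 ± 0.09) to Dtx3l (2.14 ± 0.11), the ligase partner of Parp9. The nuclear body and TRIM proteins rose in 4 of 4, from Trim25, the ubiquitin ligase of the RIG-I pathway (0.26 ± 0.07), to Trim30a (1.59 ± 0.13). The HIN-200 genes and Zbp1 rose in 3 of 3. Zbp1, a sensor of Z-form nucleic acids that triggers cell death, went from 19.5, 38.6 and 184 CPM to 479.6, 599 and 707 CPM (3.75 ± 0.21, 13.5-fold), and Ifi203 had the smallest change of that group (1.78 ± 0.15). Of the 8 other genes 7 rose. Ifi44 had the largest change of all 46 members, from a median of 18.7 to 381 CPM (3.97 ± 0.35, 15.7-fold). Ifi27l2a, which encodes a small interferon-induced membrane protein, was the member not called, with 156, 271 and 941 CPM in M0 and 314, 351 and 469 CPM in M1 (0.18 ± 0.23, adjusted p = 0.48 by edgeR). It was called higher with the mouse as a block (0.36, adjusted p = 0.0217) and without Faminp.254I mouse 4 (0.37, adjusted p = 0.0217).

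**Figure D2:**
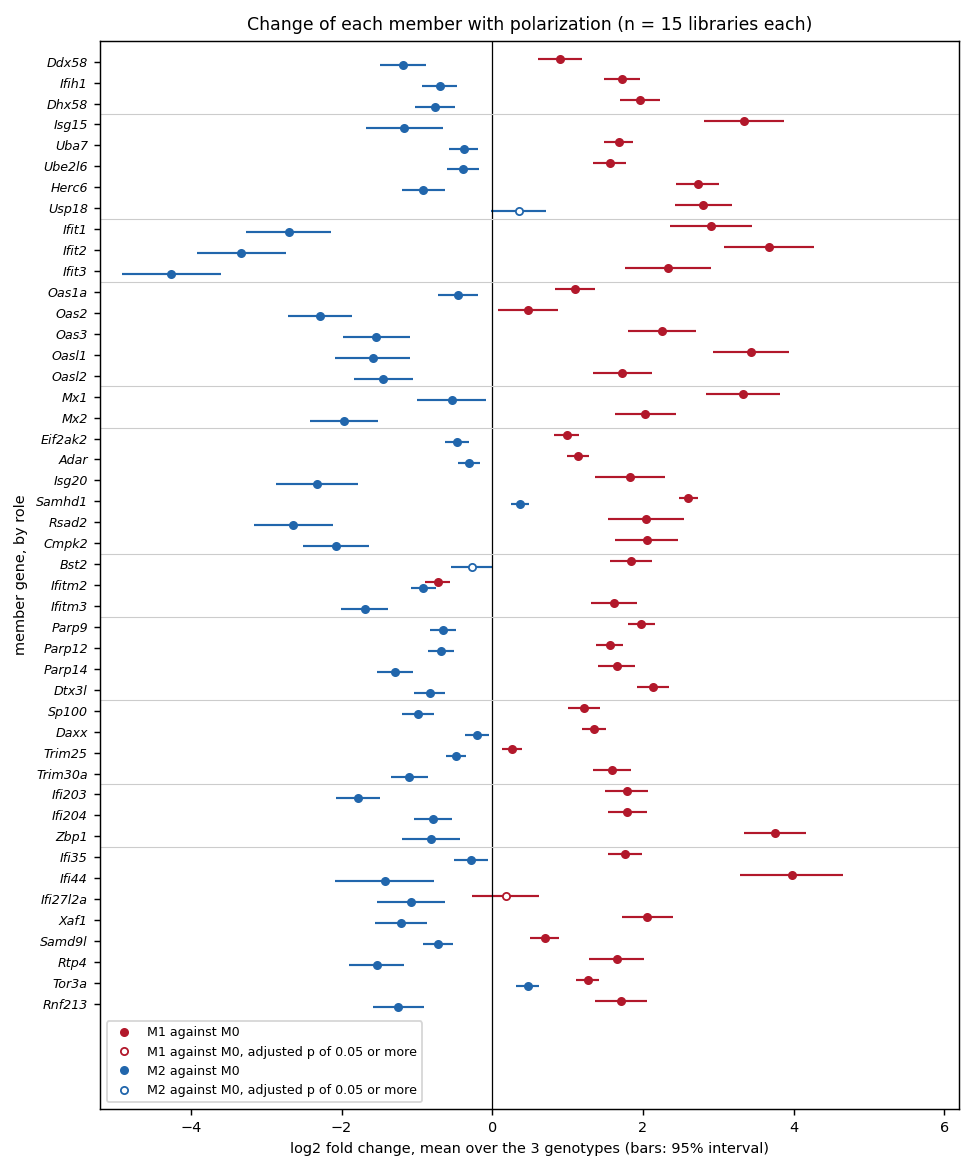
Log2 fold change of each member in M1 against M0 (red) and M2 against M0 (blue), as the mean over the 3 genotypes with its 95% interval, 15 libraries for each polarization. Red points lie right of 0 except Ifitm2, blue points lie left of 0 except Usp18, Samhd1 and Tor3a, and open points mark an adjusted p of 0.05 or more.

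In M2 macrophages most of the family was lower than in unstimulated cells. Of the 46 members 44 differed between M2 and M0, 42 of them lower and 2 higher, where 76.4% of all genes were called, 39.6% lower and 36.8% higher. The median log2 fold change was -0.95 over the members and -0.03 over all genes. The M2 libraries stood wholly below the M0 libraries for 3 members, Ifit3, Isg20 and Ifitm2, against 9.78% of all genes, and wholly above them for 0 members, against 13.6%. Without the M0 library of Faminp.254I mouse 4 the median was -0.84 and 42 members were called. Mx1, Daxx and Ifi35 were then no longer called (adjusted p = 0.152, 0.118 and 0.115) and Usp18 was called higher.

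The IFIT genes fell most, in 3 of 3 cases. Ifit3 had lowest, median and highest levels of 19.99, 73.4 and 369 CPM in M0 and 1.54, 2.78 and 12.9 CPM in M2, and fell 19.2-fold (-4.26 ± 0.34). Ifit1 fell least of the 3, to 2.82, 6.36 and 23.3 CPM (-2.70 ± 0.29, 6.52-fold). Rsad2 fell 6.24-fold to 12.1, 19.1 and 61.2 CPM (-2.64 ± 0.27), the largest fall among the RNA and nucleotide enzymes, and Cmpk2 fell to 8.995, 12.8 and 31.6 CPM (-2.07 ± 0.22). Isg20 fell by 2.33 ± 0.28, and at a median of 0.962 CPM in M2 it was among the lowest members.

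Samhd1 went the other way and rose slightly in M2, from a median of 754 to 963 CPM (0.37 ± 0.06). The other gene that rose was Tor3a, an endoplasmic reticulum ATPase, from 118 to 157 CPM (0.47 ± 0.08). The remaining 5 RNA and nucleotide enzymes and the other 7 genes of the last group fell, the latter down to Rtp4, a receptor-transporting protein with antiviral activity (-1.53 ± 0.19).

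In the OAS family 5 of 5 members fell in M2, from Oas1a with lowest, median and highest levels of 34.5, 40.6 and 80.9 CPM (-0.46 ± 0.14) to Oas2 with a median of 19.3 CPM (-2.28 ± 0.22, 4.86-fold). Oasl1 fell to 3.88, 6.71 and 25.5 CPM (-1.59 ± 0.25). Oas2 was thus the OAS gene with the smallest rise in M1 and the largest fall in M2. Both Mx genes fell, Mx2 by 1.97 ± 0.23 and Mx1, at 24.4, 43.8 and 103 CPM in M2, by 0.54 ± 0.23 (adjusted p = 0.0366 by edgeR). The call of Mx1 was lost with limma-voom (adjusted p = 0.0526), without the M0 library of Faminp.254I mouse 4 (-0.34) and without that mouse (-0.35). It was also lost without Faminp.254I mouse 3, Faminp.254V mouse 1 or 3 or Faminp.284R mouse 1, 2 or 4 (adjusted p = 0.0516 to 0.0675).

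All 3 RNA sensors fell in M2, Ifih1 least, at 36.2, 41.7 and 67.6 CPM (-0.70 ± 0.12), and Ddx58 most, at 31.5, 38.7 and 80.6 CPM (-1.19 ± 0.15). In the ISG15 system 4 of 5 members fell, with Isg15 at 7.46, 11.2 and 36.2 CPM (-1.17 ± 0.26) showing the largest fall. Usp18, the deconjugating enzyme, had 26.5, 33.0 and 61.2 CPM in M2 and was not called (0.35 ± 0.19, adjusted p = 0.0811 by edgeR). It was called higher than in M0 with the replicate number as a block (0.39, adjusted p = 0.0447), with the mouse as a block (0.42, adjusted p = 0.0316), with limma-voom (0.46, adjusted p = 0.0248) and without the M0 library of Faminp.254I mouse 4 (0.55, adjusted p = 0.00248). It was the only member of the ISG15 system not called lower in M2.

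Of the membrane factors Ifitm3 fell most, to 72.2, 87.6 and 314 CPM (-1.69 ± 0.16, 3.23-fold), and Ifitm2 fell by 0.91 ± 0.08, so that Ifitm2 was lower than M0 in both polarizations. Bst2 had 106, 131 and 275 CPM in M2 and was not called (-0.27 ± 0.14, adjusted p = 0.0722 by edgeR), but was called lower with the mouse as a block (-0.23, adjusted p = 0.0463). The ADP-ribosylation enzymes fell in 4 of 4 cases, from Parp9 (-0.66 ± 0.09) to Parp14 (-1.30 ± 0.12), and the nuclear body and TRIM genes in 4 of 4, from Daxx (-0.20 ± 0.08) to Trim30a (-1.10 ± 0.13). The call of Daxx was lost without Faminp.254V mouse 1 or 4 or Faminp.284R mouse 1 (adjusted p = 0.0541 to 0.0779), and that of Ifi35 (-0.29 ± 0.12) without Faminp.284R mouse 4 (adjusted p = 0.0618). The HIN-200 genes and Zbp1 fell in 3 of 3, from Ifi204 (-0.78 ± 0.13) to Ifi203 (-1.79 ± 0.15), and Zbp1 had 16.2, 22.5 and 45.4 CPM. Ifi27l2a, which was not called in M1, fell in M2 to 80.3, 137 and 614 CPM (-1.08 ± 0.23).

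Directly compared, M1 was higher than M2 for 46 of 46 members, where 39% of all genes were higher and 79.1% differed. The 15 M1 libraries stood wholly above the 15 M2 libraries for 44 members, all but Ifitm2 and Ifi27l2a, against 17.6% of all genes. The widest gap was that of Ifit2, with medians of 2599.6 CPM in M1 and 17.0 CPM in M2 (7.005 ± 0.36), and Ifit1 had the narrowest of the IFIT genes (5.60 ± 0.32). The largest gap of each other group was 5.40 for Ifi44, 5.02 for Oasl1, 4.68 for Rsad2, 4.57 for Zbp1, 4.51 for Isg15, 4.0 for Mx2, 3.31 for Ifitm3, 2.97 for Dtx3l, 2.72 for Dhx58 and 2.69 for Trim30a. The smallest were 0.19 for Ifitm2, 0.74 for Trim25, 0.80 for Tor3a, 1.44 for Adar, 1.55 for Oas1a, 1.95 for Ube2l6, 2.08 for Ddx58, 2.24 for Parp12, 2.58 for Ifi204 and 3.86 for Mx1. The call of Ifitm2 (adjusted p = 0.0354 by edgeR) was lost with library totals only (0.15, adjusted p = 0.1098), without the 3 M1 libraries of the mice numbered 2 (0.18, adjusted p = 0.0635) and without Faminp.254I mouse 1 or 2, Faminp.254V mouse 1, 2 or 3 or Faminp.284R mouse 2 or 3 (0.14 to 0.19, adjusted p = 0.0516 to 0.103).

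Per kilobase of annotated exon, which allows levels to be set between genes, Ifi27l2a (586 CPM per kb), Ifitm3 (466) and Bst2 (171) had the highest medians in M0, and Mx2 (1.96) and Isg20 (2.69) the lowest. In M1 Ifitm3 came first at 1572 CPM per kb, before Ifi27l2a (759), Bst2 (730) and Ifit2 (662). In M2 Ifi27l2a was again first (297), and Bst2 (146) and Ifitm3 (129) had ranges that overlapped. Ifi27l2a was therefore among the most abundant members in every polarization and, in M1, the one not called as changed.

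Of 44 other genes of the interferon pathway that were listed, 32 could be tested, and 22 rose and 4 fell in M1, whereas 7 rose and 19 fell in M2. The share called in either direction was near that of all genes, 77.3% and 76.4%, but the directions were less even than over all genes. Of all genes 37% rose and 40.3% fell in M1, and 36.8% rose and 39.6% fell in M2. The ISGF3 subunit Stat2 rose in M1 (1.93 ± 0.13) and fell in M2 (-0.63 ± 0.13). Irf9, the DNA-binding subunit, moved less (0.42 ± 0.07 and -0.57 ± 0.07). Irf7, the factor that drives interferon-α genes, had lowest, median and highest levels of 88.6, 154 and 1539.5 CPM in M0, 1196, 2357 and 2751 CPM in M1 and 20.3, 33.8 and 289 CPM in M2 (3.29 ± 0.35 and -2.11 ± 0.34). Of the receptor genes Ifnar1 fell slightly in M1 (-0.29 ± 0.04) and Ifnar2 was not called (0.10 ± 0.05), and in M2 Ifnar2 fell (-0.82 ± 0.05). Socs1, the feedback inhibitor of JAK kinases, rose in both M1 (7.33 ± 0.12) and M2 (5.15 ± 0.11), unlike nearly all members. Of the interferon genes themselves Ifnk, Ifnl2, Ifnl3 and Ifng held between 0 and 2 reads in each library and were not tested. No values were at hand for the listed interferon-α genes and Ifne, and Ifnb1 was not analysed here.

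The M0 library of Faminp.254I mouse 4 was looked at apart, since it was pointed out with results of these data known, and its values are given without a test. It was the highest of the 15 M0 libraries for 46 of 46 members, against 17.1% of all genes, and it exceeded the median of the other 14 more than 2-fold for 41 members, against 2.63% of all genes. The ratio to that median had a median of 2.85 over the members and ran from 1.36 for Ifitm2 to 8.54 for Ifi44. The mean log2(CPM + 1) over the 46 members was 7.99 in this library and between 5.81 and 6.89 in the other 14.

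In mice 1 to 5 of each genotype Isg15 in M0 was 32.7, 24.6, 30.1, 158 and 20.7 CPM in Faminp.254I, 29.8, 29.3, 24.5, 22.1 and 13.6 CPM in Faminp.254V and 31.0, 35.7, 47.1, 27.9 and 14.7 CPM in Faminp.284R. For Ifi44 the values were 23.4, 19.0, 18.4, 158 and 8.24 CPM in Faminp.254I, 21.0, 18.7, 13.8, 12.5 and 4.65 CPM in Faminp.254V and 21.1, 26.7, 25.9, 14.8 and 5.71 CPM in Faminp.284R. Ifit3 stood at 78.4, 63.4, 73.4, 369 and 26.2 CPM in Faminp.254I, 76.5, 75.4, 54.1, 34.3 and 19.99 CPM in Faminp.254V and 75.5, 90.8, 95.5, 44.9 and 21.9 CPM in Faminp.284R. In all 3 genes the fourth Faminp.254I culture lay more than 3-fold above each of the other 14. Zbp1 was 42.3, 39.6, 39.97, 184 and 23.6 CPM in Faminp.254I, 41.2, 38.3, 33.8, 27.8 and 19.5 CPM in Faminp.254V and 38.6, 49.7, 57.6, 30.8 and 21.3 CPM in Faminp.284R. Oasl1 was 19.9, 24.04, 20.6, 111 and 14.7 CPM in Faminp.254I, 22.1, 24.5, 23.1, 17.7 and 13.6 CPM in Faminp.254V and 21.2, 30.3, 34.4, 23.0 and 12.9 CPM in Faminp.284R. Bst2, with little spread elsewhere, was 154, 153, 147, 499 and 142 CPM in Faminp.254I, 158, 184, 146, 147 and 121 CPM in Faminp.254V and 157, 195, 205, 159 and 125 CPM in Faminp.284R. The same single culture stood out each time, and without it the 3 genotypes overlapped.

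The excess was of the size of M1 polarization for some members only. For 8 members (Ddx58, Oas1a, Oas2, Isg20, Ifitm2, Trim25, Ifi27l2a and Samd9l) the unstimulated culture exceeded the M1 culture of the same mouse, and for 5 of these, Oas2, Ifitm2, Trim25, Ifi27l2a and Samd9l, it exceeded all 15 M1 libraries. For Ifitm2 all 15 M0 libraries stood above all 15 M1 libraries, so that gene does not set this culture apart. Oas2 was 317 CPM, against at most 195 CPM in M1, and Ifi27l2a was 941 CPM, against at most 469 CPM. For Ifi27l2a another M0 library, at 539 CPM, also exceeded all M1 libraries. Mx1, by contrast, was 212 CPM, against at least 555 CPM in M1. Of the 3 listed markers of IFN-γ and LPS treatment, Nos2 and Cxcl9 were low in this culture but the highest of the 15 M0 libraries. The remaining marker was not. Nos2 was at 0.156 CPM against at most 0.0879 CPM, a level of very few reads. Cxcl9 was nearly level with the next library, at 1.45 CPM against at most 1.43 CPM, where the M1 culture of the same mouse held 1339 CPM.

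The interferon pathway genes moved with the members in this culture, which was the highest of 15 for 21 of 32 tested pathway genes. Irf7 was 1539.5 CPM against 88.6 to 294 CPM in the other 14, and Stat2 408 CPM against 92.3 to 187 CPM. The receptor genes did not stand out, with Ifnar1 at 230.2 CPM against 191 to 252 CPM. Of the 4 plasmacytoid dendritic cell markers, cells known for strong interferon release, 0 were highest in this culture: Siglech was 0.196 CPM, Ccr9 0.117 CPM and Klk1 0 CPM, and the summed list was 108 CPM against 75.2 to 121 CPM elsewhere, nearly all of it Tcf4. Of 6 macrophage markers Cd68 and Fcgr1 were highest in this culture, Fcgr1, an Fc receptor gene induced by interferon, at 1098 CPM against 294 to 463 CPM. Stromal markers summed to 15.4 CPM, the lowest of the 15. What set this culture apart was not tested.

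The other cultures of the same mouse behaved differently from each other. In M2 the culture of Faminp.254I mouse 4 was the highest of 15 for 37 of 46 members (14.2% of all genes) and over 2-fold above the median of the other 14 for 24 (2.24% of all genes), with a median ratio of 2.03. Ifi27l2a in M2 was 87.7, 83.7, 127, 614 and 159.9 CPM in Faminp.254I, 106, 80.3, 156, 153 and 155 CPM in Faminp.254V and 94.6, 106, 137, 167 and 138 CPM in Faminp.284R. Ifitm3 in M2 was 109, 115, 76.2, 314 and 85.9 CPM in Faminp.254I, 98.2, 84.4, 72.2, 87.6 and 84.2 CPM in Faminp.254V and 86.1, 115, 144, 105 and 75.4 CPM in Faminp.284R. In M1 the culture of this mouse was the highest of 15 for 0 of 46 members, where 9.46% of all genes were highest in it, and over 2-fold above the median for 0, where 1.58% of all genes were. Its median ratio there was 1.05, and after IFN-γ and LPS the culture lay within the range of the others for 45 members. Samhd1 was the exception, the lowest of 15 at 3950.4 CPM against 4157 to 4808 CPM. In M2 too this culture was the lowest of 15 for Samhd1, at 773 CPM against 847 to 1116 CPM.

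**Figure D3:**
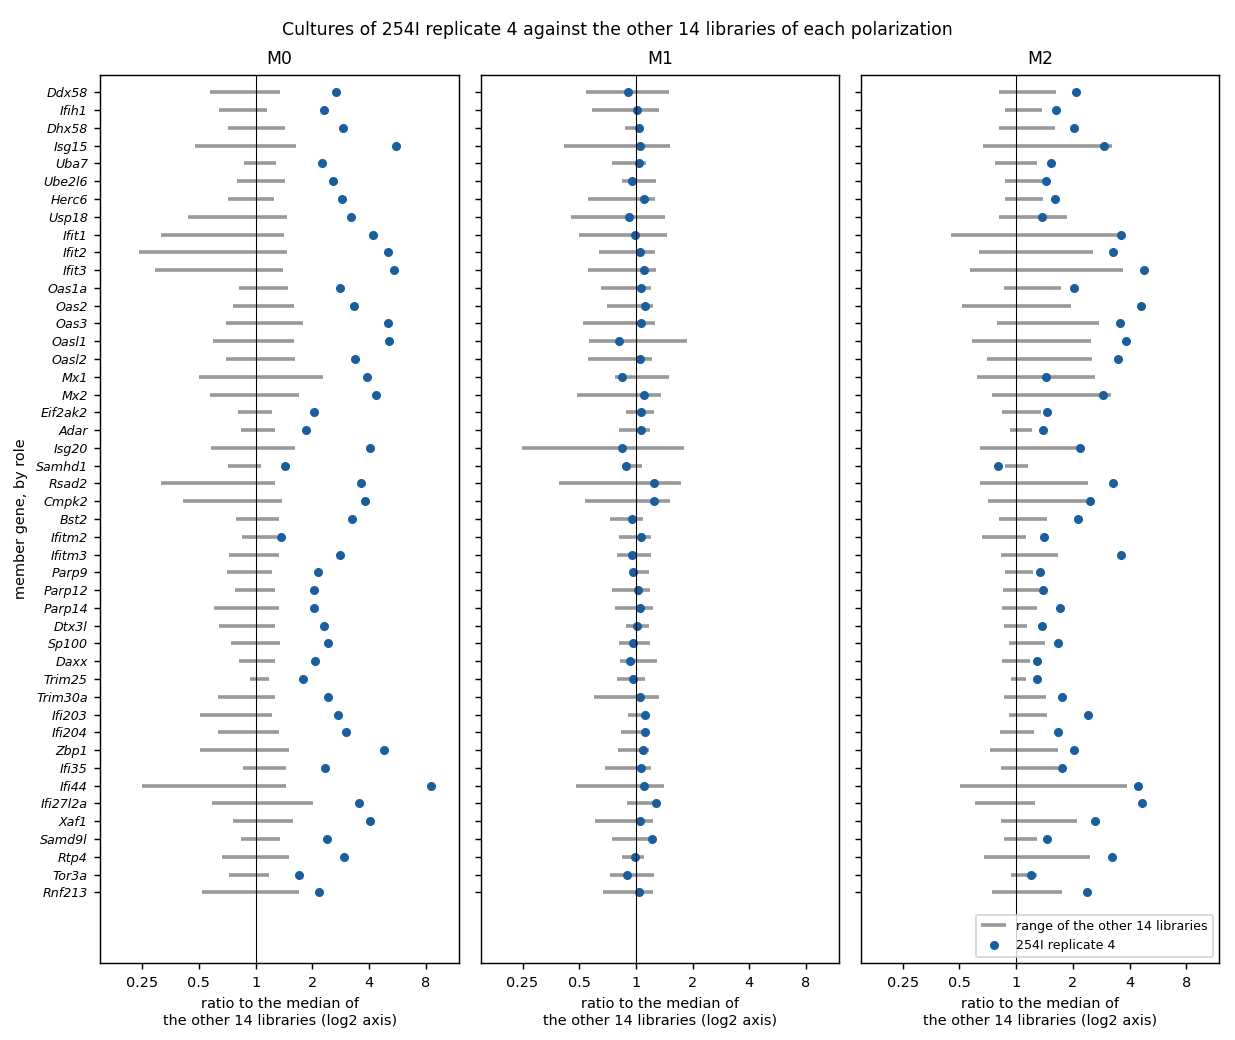
Level of each member in the cultures of Faminp.254I mouse 4 (blue points), as the ratio to the median of the other 14 libraries of the same polarization on a log2 axis, with the range of those 14 as a grey bar. Points lie right of the bars for all 46 members in M0 and for 37 in M2, and within or at the edge of the bars in M1 except for Samhd1, which lies left of its bar.

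The members varied more between mice of a group than most genes did, and not through that culture alone. The pooled within-group SD of log2(CPM + 1) in M0 had a median of 0.51 over the members and 0.16 over all genes, and without Faminp.254I mouse 4 it was 0.31 and 0.15, with 45 of 46 members still above the median of all genes. In M1 the medians were 0.21 and 0.14 and 37 members lay above, and in M2 they were 0.35 and 0.15 with 44 above. Ifi44 had the largest SD in M2 and Isg20 in M1, with and without that mouse, and in M0 it was Ifi44 with all mice and Ifit2 without it.

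Part of this spread followed the replicate number of the labels, whose meaning was not given. In M1 the mouse numbered 2 was the lowest of its group of 5 for 44 of 46 members in Faminp.254I, 39 in Faminp.254V and 38 in Faminp.284R, against 28.8%, 29.3% and 27.9% of all genes. For 24 members the 3 libraries numbered 2 lay wholly below the other 12, against 8.81% of all genes. Rsad2 in M1 was 524, 237, 664, 756 and 551 CPM in Faminp.254I, 551, 252, 613, 613 and 596 CPM in Faminp.254V and 685, 394, 909, 1052 and 802 CPM in Faminp.284R. Isg15 in M1 was 345, 146, 391, 370.3 and 311 CPM in Faminp.254I, 329.9, 171, 379.6, 334 and 359 CPM in Faminp.254V and 362, 237, 495, 469 and 532 CPM in Faminp.284R. Usp18 in M1 was 231, 94.5, 228, 193 and 170.4 CPM in Faminp.254I, 216, 100.4, 203, 191 and 184 CPM in Faminp.254V and 245, 135, 299, 283 and 245 CPM in Faminp.284R. In each gene the second value of every genotype was the lowest of its 5. Mx1 in M1 was 565, 555, 726, 604 and 623 CPM in Faminp.254I, 619.7, 615, 633, 759 and 709 CPM in Faminp.254V and 769, 832, 857, 1077 and 867 CPM in Faminp.284R, and in Faminp.284R the mouse numbered 2 was not its lowest. The M1 markers moved with these libraries: Nos2 was 3.01, 4.92 and 8.603 CPM in the mice numbered 2 and from 17.8 to 149 CPM in the other 12, and Cxcl9 was 979, 1367 and 1777 CPM against 1339 to 5339.9 CPM. The part of these markers in the members' lower levels was not tested.

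In M0 the mouse numbered 5 was the lowest of its group for 38, 41 and 42 members in the 3 genotypes, against 24.2%, 24.3% and 24.5% of all genes. In Faminp.284R the mouse numbered 3 was the highest of its group for 37 members in M0, 30 in M1 and 40 in M2, against 17.7%, 17.8% and 19.8% of all genes. Mx1 in M0 was highest in the mouse numbered 2 in Faminp.254V and Faminp.284R (103 and 124 CPM) and second highest in Faminp.254I (102 CPM), after mouse 4. In the other 11 M0 libraries, those of the mice numbered 2 and of Faminp.254I mouse 4 left aside, Mx1 did not exceed 84.0 CPM.

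**Figure D4:**
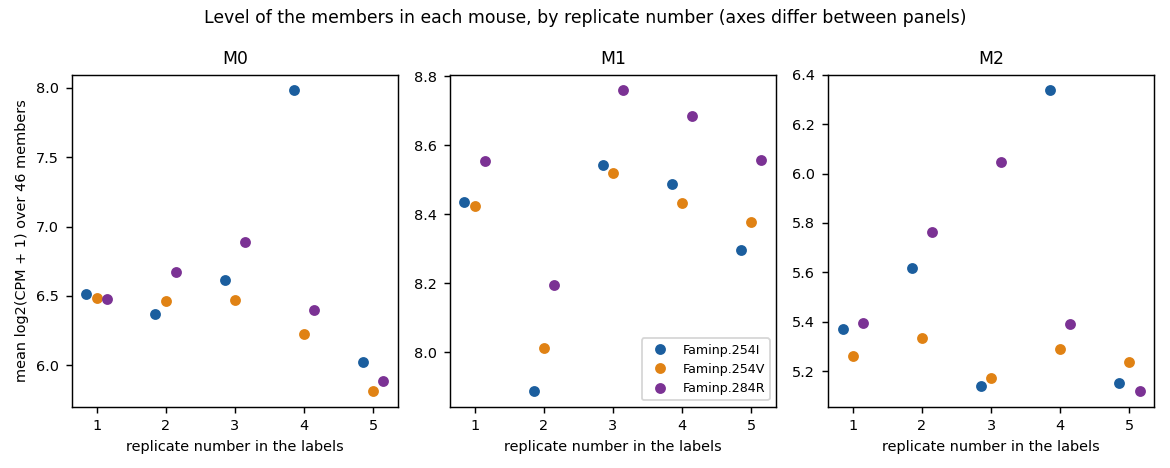
Mean log2(CPM + 1) over the 46 members in each library, by polarization (panels, with different vertical axes), replicate number of the labels (horizontal axis) and genotype (colour). Faminp.254I mouse 4 stands above all others in M0 and M2, the mice numbered 2 are lowest in M1 and the mice numbered 5 lowest in M0.

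Genotypes were compared in each polarization alone and averaged over the 3 polarizations. By edgeR, limma-voom and DESeq2 alike, 0 of 46 members were called in these 9 comparisons and in 4 tests of whether a genotype difference changed with polarization. The smallest adjusted p of any member by edgeR was 0.648, for Faminp.284R against Faminp.254I in M1, and the smallest in any other of these comparisons was 0.948. The adjusted test called 0.0155% of all genes for Faminp.284R against Faminp.254I averaged over polarizations, 0.0155% for Faminp.254V against Faminp.254I and 0% for Faminp.284R against Faminp.254V. It called 0.263% for Faminp.284R against Faminp.254I in M1, 0.00775% in M2 and 0% in the other comparisons. Shares of all genes passing a genotype test are from the edgeR fit of all 45 libraries. Numbers of members from other fits or omissions stand without such a share. With 5 mice a group and the spread given above, the median SE of a member's log2 fold change within a polarization was 0.24 in M0, against 0.12 over all genes.

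In M0 both variant genotypes lay below Faminp.254I for 46 of 46 members when all libraries were used, and this rested on 1 library. At an unadjusted p under 0.05 there were 30 members for Faminp.254V against Faminp.254I, where 1.79% of all genes passed, and 2 for Faminp.284R against Faminp.254I, where 1.08% passed. Limma-voom gave 6 members and DESeq2 30 for Faminp.254V, and 0 and 2 for Faminp.284R. The median log2 fold changes were -0.51 and -0.35. Without the M0 library of Faminp.254I mouse 4 they were -0.06 and 0.09, with 37 members lower in Faminp.254V and 42 higher in Faminp.284R, and 0 members passed at an unadjusted p under 0.05 in either. The 2 comparisons share the Faminp.254I libraries.

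The members with the smallest p in M0, given as log2 fold change ± SE, were Zbp1 (-1.04 ± 0.33), Ifi44 (-1.69 ± 0.56) and Ifi204 (-0.64 ± 0.22) for Faminp.254V. For Faminp.284R they were Ifi44 (-1.26 ± 0.55), Zbp1 (-0.73 ± 0.33) and Ifi204 (-0.43 ± 0.22). Without the library of mouse 4, Zbp1, Ifi44 and Ifi204 were at -0.18, -0.30 and -0.12 in Faminp.254V and at 0.13, 0.14 and 0.08 in Faminp.284R, so the direction turned in the latter.

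**Figure D5:**
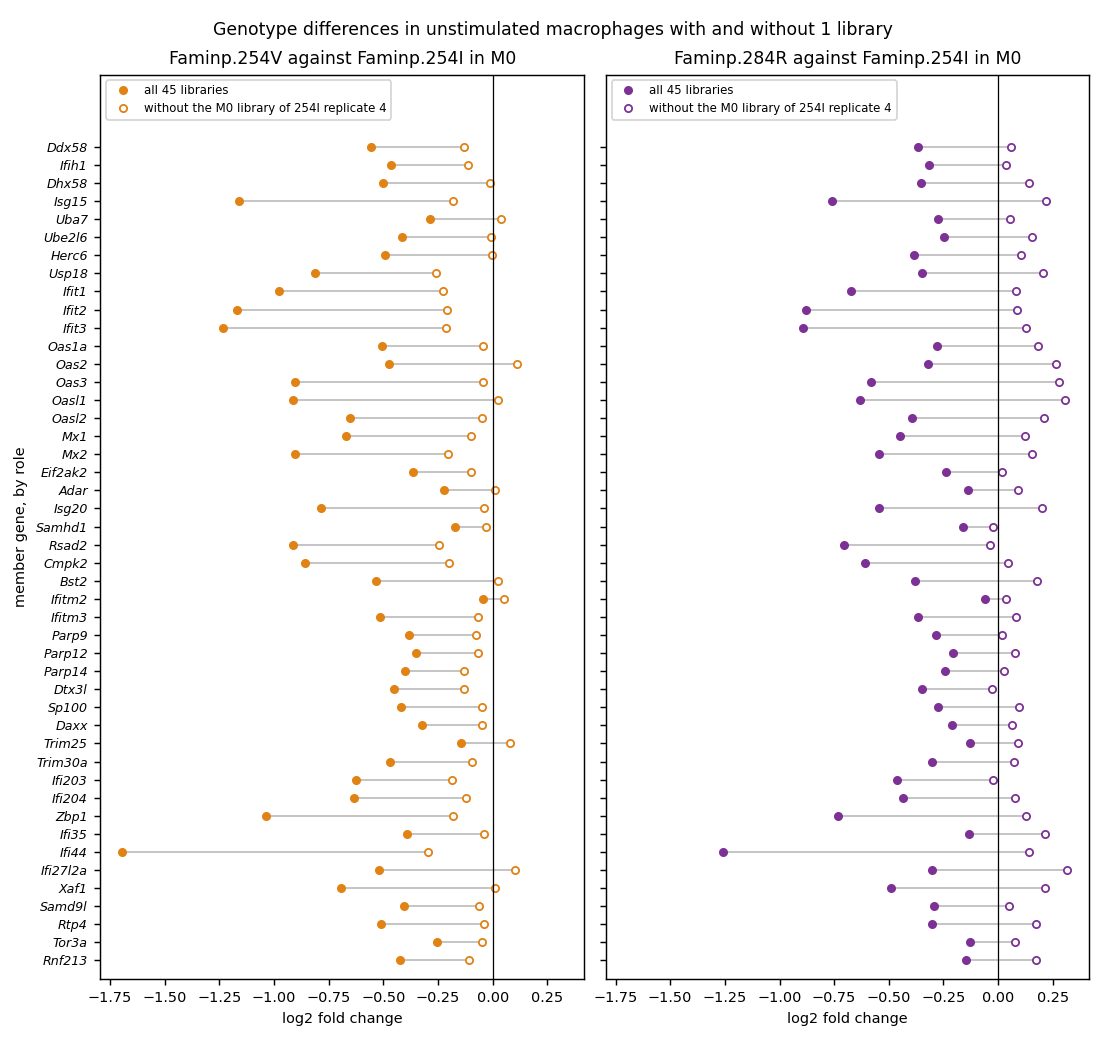
Log2 fold change of each member in unstimulated macrophages for Faminp.254V (left) and Faminp.284R (right) against Faminp.254I, with all 45 libraries (filled) and without the M0 library of Faminp.254I mouse 4 (open). All filled points lie left of 0, and the open points lie near 0, 42 of 46 to its right in Faminp.284R.

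In M1 the genotype difference ran the other way for Faminp.284R, in which 44 of 46 members were higher than in Faminp.254I with a median of 0.19, but 2 members had an unadjusted p under 0.05, where 6.7% of all genes did. The smallest were Tor3a (0.30 ± 0.13), Daxx (0.29 ± 0.14) and Oasl1 (0.74 ± 0.40). Tor3a in M1 was 299, 217, 297, 267 and 264 CPM in Faminp.254I, 282, 228, 302, 273 and 269 CPM in Faminp.254V and 301, 296, 368, 358 and 334 CPM in Faminp.284R. Oasl1 in M1 was 250.1, 153, 319, 222 and 236 CPM in Faminp.254I, 246, 166, 281, 264 and 305 CPM in Faminp.254V and 308, 244, 419, 511 and 494 CPM in Faminp.284R. The genotypes overlapped in both genes. Mx1 was the member whose 5 Faminp.284R values in M1, given above, lay wholly above the 5 of Faminp.254I (0.52 ± 0.40, 95% interval -0.26 to 1.30), where 0.318% of all genes did. Nos2 moved with this group, from 81.5 to 149 CPM in Faminp.284R mice 3 to 5 and at most 26.0 CPM in the other 12 M1 libraries, and its part was not tested. Without Faminp.254I mouse 4 the median was 0.22 with 4 members at an unadjusted p under 0.05.

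Faminp.254V in M1 had 0 members with an unadjusted p under 0.05, where 0.93% of all genes had one, and a median of 0.01. Even the members with the smallest p, Daxx, Samhd1 and Uba7, had 95% intervals of -0.19 to 0.35, -0.16 to 0.26 and -0.27 to 0.39.

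In M2, Faminp.254V had 6 members with an unadjusted p under 0.05, where 2.55% of all genes had one, and a median of -0.32. The smallest were Ifitm3 (-0.72 ± 0.27), Oas2 (-0.91 ± 0.37) and Rtp4 (-0.75 ± 0.32). Faminp.284R had 0, where 1.15% of all genes had one, with a median of -0.01 and the smallest p for Ifi27l2a (-0.74 ± 0.40), Ifitm3 (-0.41 ± 0.27) and Samhd1 (0.12 ± 0.11). Without Faminp.254I mouse 4 the medians were -0.07 for Faminp.254V with 0 members passing (limma-voom gave 1 and DESeq2 7 with all mice) and 0.22 for Faminp.284R with 2, so the values of M2 rested on that mouse too.

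Averaged over the polarizations, Faminp.254V had 23 members with an unadjusted p under 0.05 against Faminp.254I, where 2.5% of all genes had one, and a median of -0.28. The cultures of a mouse count there as separate samples, and limma-voom gave 0 members whether or not the mouse entered as a random effect, while DESeq2 gave 22. The smallest were Ifi44 (-1.02 ± 0.33), Ifitm3 (-0.39 ± 0.15) and Isg15 (-0.65 ± 0.26). Without the M0 library of Faminp.254I mouse 4 the number was 1, and without the mouse 0. Faminp.284R had 0 members, where 4.38% of all genes passed, and a median of -0.06, with the smallest p for Ifi27l2a (-0.40 ± 0.23), Ifitm2 (-0.13 ± 0.08) and Ifitm3 (-0.22 ± 0.15). Without that mouse the number was 14 and the median 0.18, and the number was 1 when Faminp.284R mouse 3 was left out too. The share of all genes passing without that mouse is not given here, so the 14 has no background beside it.

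The comparison of Faminp.284R with Faminp.254V takes no value from the Faminp.254I libraries. There 44 of 46 members were higher in Faminp.284R, with a median of 0.21, and 8 members had an unadjusted p under 0.05, where 4.7% of all genes had one. The smallest were Tor3a (0.19 ± 0.08), Ifi35 (0.28 ± 0.12) and Mx2 (0.52 ± 0.22). Leaving out Faminp.254I mouse 4, which enters there only through the shared fit, gave 29 members, and leaving out Faminp.284R mouse 3 as well gave 6 and a median of 0.13. Without Faminp.254I mouse 4 the SE fell while the log2 fold change hardly moved. For Oas2 the latter was 0.31 with and without that mouse, and the SE 0.21 and 0.11. Limma-voom gave 3 members and, once the mouse entered as a random effect, 1. DESeq2 gave 6, the replicate block 11 and the block within polarization 18. The number thus moved with the mice used and with the model, and 0 members passed the adjusted test in any of these fits. The share of all genes passing is not given for these other fits, so their numbers have no background beside them.

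The tests of change with polarization gave 6 members with an unadjusted p under 0.05 for Faminp.284R between M1 and M0, where 2.76% of all genes had one, 3 for Faminp.254V (0.86% of all genes), 0 for Faminp.284R between M2 and M0 (0.542% of all genes) and 1 for Faminp.254V (1.29% of all genes). Between M1 and M0 the smallest p were those of Daxx (0.50 ± 0.20), Oasl1 (1.37 ± 0.57) and Tor3a (0.43 ± 0.19) for Faminp.284R. For Faminp.254V they were Zbp1 (1.05 ± 0.46), Ifi44 (1.60 ± 0.77) and Daxx (0.40 ± 0.20). Between M2 and M0 they were Samhd1 (0.29 ± 0.15), Zbp1 (0.76 ± 0.47) and Mx1 (0.87 ± 0.57) for Faminp.284R and Samhd1 (0.33 ± 0.15), Dtx3l (0.45 ± 0.26) and Ifi204 (0.51 ± 0.31) for Faminp.254V. Without the M0 library of Faminp.254I mouse 4 the first 2 numbers were 0 and 0.

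Group means ± SD over the 5 mice complete the levels of 15 representative members. In M0 Usp18 was 37.6 ± 27.5 CPM in Faminp.254I, 21.4 ± 7.47 CPM in Faminp.254V and 29.4 ± 9.79 CPM in Faminp.284R. Ifit1 was 81.5 ± 75.2 CPM in Faminp.254I, 41.4 ± 17.8 CPM in Faminp.254V and 51.0 ± 20.8 CPM in Faminp.284R. Rsad2 was 213 ± 181 CPM in Faminp.254I, 113 ± 53.2 CPM in Faminp.254V and 131 ± 55.02 CPM in Faminp.284R. In each of these the mean of Faminp.254I was the highest and its SD the widest, mouse 4 lying far above the rest. Cmpk2 was 92.5 ± 77.1 CPM in Faminp.254I, 51.1 ± 18.8 CPM in Faminp.254V and 60.4 ± 21.1 CPM in Faminp.284R. Mx1 was 92.1 ± 71.6 CPM in Faminp.254I, 57.9 ± 27.5 CPM in Faminp.254V and 67.4 ± 37.8 CPM in Faminp.284R. Oas1a was 75.3 ± 46.4 CPM in Faminp.254I, 53.0 ± 5.28 CPM in Faminp.254V and 61.9 ± 13.9 CPM in Faminp.284R. The order of the genotypes was the same, with Faminp.254V lowest. Ifih1 was 85.4 ± 42.5 CPM in Faminp.254I, 61.8 ± 12.5 CPM in Faminp.254V and 68.6 ± 11.8 CPM in Faminp.284R. Ddx58 was 121 ± 71.6 CPM in Faminp.254I, 82.3 ± 19.4 CPM in Faminp.254V and 93.9 ± 23.2 CPM in Faminp.284R. Ifitm3 was 428 ± 256 CPM in Faminp.254I, 299 ± 44.4 CPM in Faminp.254V and 332 ± 68.3 CPM in Faminp.284R. The means of the variants differed from Faminp.254I by less than the SD of the latter in these sensor and membrane genes too. Ifi27l2a was 392 ± 313 CPM in Faminp.254I, 273 ± 89.5 CPM in Faminp.254V and 318 ± 147 CPM in Faminp.284R.

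In M1 the SD of Faminp.254I was the widest for Oas1a alone of the 15 members, and the mean of Faminp.284R was the highest for 14 of them, all but Ifi27l2a. Ifit1 was 377 ± 94.3 CPM in Faminp.254I, 381 ± 79.5 CPM in Faminp.254V and 498 ± 116 CPM in Faminp.284R. Ifit3 was 361 ± 95.9 CPM in Faminp.254I, 361 ± 79.2 CPM in Faminp.254V and 411 ± 97.5 CPM in Faminp.284R. Cmpk2 was 253 ± 72.4 CPM in Faminp.254I, 244 ± 55.4 CPM in Faminp.254V and 326 ± 77.9 CPM in Faminp.284R. The excess of Faminp.284R was of about the size of 1 SD in Ifit1 and Cmpk2 and smaller in Ifit3. Oas1a was 128 ± 23.4 CPM in Faminp.254I, 130 ± 23.0 CPM in Faminp.254V and 145 ± 20.6 CPM in Faminp.284R. Ifih1 was 221 ± 46.3 CPM in Faminp.254I, 218 ± 38.2 CPM in Faminp.254V and 271 ± 48.4 CPM in Faminp.284R. Ddx58 was 164 ± 36.5 CPM in Faminp.254I, 172 ± 34.4 CPM in Faminp.254V and 214 ± 53.5 CPM in Faminp.284R. The groups overlapped in these 3 genes. Zbp1 was 579 ± 69.3 CPM in Faminp.254I, 582 ± 53.3 CPM in Faminp.254V and 610.5 ± 78.6 CPM in Faminp.284R. Bst2 was 614 ± 85.2 CPM in Faminp.254I, 623 ± 86.7 CPM in Faminp.254V and 664 ± 73.4 CPM in Faminp.284R. Ifitm3 was 1020.5 ± 127 CPM in Faminp.254I, 1062 ± 144 CPM in Faminp.254V and 1119 ± 100.4 CPM in Faminp.284R. Relative to the mean, the spread within groups was narrower in these 3 than in the IFIT genes. Ifi27l2a was 387 ± 41.7 CPM in Faminp.254I, 368 ± 60.8 CPM in Faminp.254V and 345 ± 37.4 CPM in Faminp.284R.

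In M2 the mean of Faminp.254V was the lowest of the 3 genotypes for 14 of the 15 members, all but Ifi27l2a. Isg15 was 17.7 ± 10.6 CPM in Faminp.254I, 10.2 ± 1.78 CPM in Faminp.254V and 19.5 ± 13.0 CPM in Faminp.284R. Usp18 was 38.0 ± 9.38 CPM in Faminp.254I, 31.6 ± 3.44 CPM in Faminp.254V and 40.7 ± 13.96 CPM in Faminp.284R. Ifit1 was 10.2 ± 7.73 CPM in Faminp.254I, 5.54 ± 1.83 CPM in Faminp.254V and 10.9 ± 8.29 CPM in Faminp.284R. In these 3 Faminp.284R had the highest mean and the widest SD. Ifit3 was 5.00 ± 4.60 CPM in Faminp.254I, 2.47 ± 0.554 CPM in Faminp.254V and 4.68 ± 3.47 CPM in Faminp.284R. Rsad2 was 28.2 ± 19.5 CPM in Faminp.254I, 17.6 ± 2.94 CPM in Faminp.254V and 26.1 ± 12.6 CPM in Faminp.284R. Cmpk2 was 17.8 ± 8.91 CPM in Faminp.254I, 12.1 ± 0.897 CPM in Faminp.254V and 17.7 ± 8.78 CPM in Faminp.284R. Here Faminp.254I, with mouse 4 in it, had the highest mean and the widest SD. Mx1 was 48.5 ± 28.3 CPM in Faminp.254I, 37.4 ± 16.2 CPM in Faminp.254V and 65.0 ± 35.5 CPM in Faminp.284R. Oas1a was 50.04 ± 19.1 CPM in Faminp.254I, 38.7 ± 3.14 CPM in Faminp.254V and 49.3 ± 13.0 CPM in Faminp.284R. Oasl1 was 11.4 ± 8.80 CPM in Faminp.254I, 6.08 ± 1.27 CPM in Faminp.254V and 9.78 ± 5.08 CPM in Faminp.284R. The lowest and the highest mean of each lay within 1 SD of the widest group. Ifih1 was 46.2 ± 12.3 CPM in Faminp.254I, 40.9 ± 2.995 CPM in Faminp.254V and 44.6 ± 7.62 CPM in Faminp.284R. Ddx58 was 46.6 ± 19.2 CPM in Faminp.254I, 37.2 ± 1.38 CPM in Faminp.254V and 45.8 ± 11.6 CPM in Faminp.284R. Zbp1 was 26.9 ± 11.4 CPM in Faminp.254I, 20.8 ± 2.98 CPM in Faminp.254V and 27.5 ± 8.07 CPM in Faminp.284R. The same held for these sensors and Zbp1. Bst2 was 169 ± 65.4 CPM in Faminp.254I, 127 ± 9.70 CPM in Faminp.254V and 148 ± 32.5 CPM in Faminp.284R.

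Some members share sequence with other genes, and the counting method was not given in the sources used here. More than 5% of the 50-base words of 11 members occur in another annotated gene, among them Herc6, Ifi203, Ifi204, Ifit1, Ifitm3, Rtp4, Sp100 and Trim30a besides the 3 named above. Exons of 9 members (Dhx58, Usp18, Oasl1, Eif2ak2, Adar, Parp9, Dtx3l, Ifi35 and Rnf213) overlap an exon on the other strand, and those of 7 (Uba7, Herc6, Ifitm2, Parp14, Sp100, Ifi203 and Rtp4) an exon of another gene on the same strand, so their counts may include reads of the neighbour.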

How the data were processed

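The mRNA of 45 BMDM cultures was sequenced as single 50-base reads. The authors deposited raw read counts for 29307 genes and a table of CPM (counts scaled to the library total) for 11900 genes, whose recovered reads equalled the counts in 100% of values (tolerance 0.01). The labels name Trim Galore and HISAT2 against mm10 with limma, the series text names other software, and the counter, annotation and strand setting were not given in the sources used here.

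Counts were analysed with edgeR 4.0.16 in R 4.3.3: TMM factors (0.939 to 1.10), filterByExpr (12905 genes kept), 1 robust quasi-likelihood fit of the 9 labelled groups, and Benjamini-Hochberg adjustment over all genes tested, with adjusted p under 0.05 as the call. SE is the size of the log2 fold change divided by the root of the F statistic. The fit was run on simulated counts with known changes, drawn independently for each library. The simulation held no effect of mouse or replicate number and no outlying library, so it does not speak to these. Alternatives were other scalings, no filter, limma 3.58.1 (voom), DESeq2 1.42.0, replicate blocks, each mouse left out and, chosen after seeing the data, recovered reads, replicate 2 left out in M1 and 2 mice left out together.

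No 2 libraries held identical values. Cultures alike in genotype and number were treated as coming from 1 mouse, which the labels imply but do not state. The correlations that follow do not settle this, since same-numbered libraries of different genotypes also deviated together. Deviations of same-numbered libraries correlated above 0.1 in 15 of 15 pairs of groups in M0 and M1 and in 13 of 15 in M2, and those of cultures of a mouse in 13, 15 and 10 of 15 mice for M0 with M1, M0 with M2 and M1 with M2. Members, gene lists and the rule for named genes (the largest and smallest change of each role group with polarization, the 3 smallest p for genotype, and 15 representative members in full) were chosen with earlier results of these data known. The values of 1 listed pathway gene and of 1 cell type marker are not reported here.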

Additional observations from a re-analysis of the deposited data

Results flagged for a closer look

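Each of 135 series (15 representative members in 9 groups of 5 mice) and the mean over the 46 members in each group was examined for a mouse lying far from the other 4, by Dixon's ratio of the gap to the group's range at the 95% level, which chance passes in about 1 in 20 groups. In 25 of the 135 series and in 1 of the 9 means a mouse stood apart.

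The unstimulated culture of Faminp.254I mouse 4 stood above the other 4 for 14 of the 15 members. This culture was singled out with results of these data known, so its values describe it again and are no test. Its levels were 158 CPM for Isg15, 85.5 CPM for Usp18, 213 CPM for Ifit1, 369 CPM for Ifit3, 529 CPM for Rsad2 and 227 CPM for Cmpk2. They were 157 CPM for Oas1a, 111 CPM for Oasl1, 159 CPM for Ifih1, 244 CPM for Ddx58, 184 CPM for Zbp1, 499 CPM for Bst2, 885 CPM for Ifitm3 and 941 CPM for Ifi27l2a. Mx1, the remaining one, was also highest there without passing the limit. The M2 culture of the same mouse stood above its group for Ifih1 (67.6 CPM), Ddx58 (80.6 CPM), Ifitm3 (314 CPM) and Ifi27l2a (614 CPM).

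In M1 the culture of Faminp.254V mouse 2 stood below its group for Isg15 (171 CPM), Usp18 (100.4 CPM) and Rsad2 (252 CPM) and in its mean log2(CPM + 1) over the 46 members (8.01). The M1 culture of Faminp.254I mouse 2 stood below its group for Ifit1 (212 CPM) and Ifih1 (141 CPM). In M2 Faminp.254V mouse 3 stood below its group for Rsad2 (12.5 CPM), and Faminp.254V mouse 2 above it for Mx1 (65.9 CPM). No test of what set these cultures apart was run.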

How the results depend on the processing

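The numbers of members called kept within 1.5 times of the reported ones under every alternative run. Leaving out each mouse in turn gave 44 to 46 members for M1 against M0, 42 to 44 for M2 against M0, 45 to 46 for M1 against M2 and 0 in the genotype comparisons and tests of change with polarization. With the replicate number as a block, with the block within polarization and with the mouse as a block, the pairing gave 45, 45 and 46 members in M1 against M0, the same numbers in M2 against M0 and 46 in M1 against M2, and 0 for genotype where the block could be fitted. No polarization change of a member turned its direction. Library totals in place of TMM moved the median of all genes in M1 against M0 from -0.03 to -0.13, with 44 members called. Across the values followed for single members (all 46 for polarization, the named ones for genotype), 5069 kept direction and call, 35 lost the call and 14 gained it.

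Of the genotype comparisons only the 3 members with the smallest p were followed singly, and the direction turned in 15 of these values, all for Faminp.284R against Faminp.254I. Without Faminp.254I mouse 4 the average over polarizations was 0.12 for Ifi27l2a and 0.11 for Ifitm3 (lowest over the mice left out -0.54 and -0.31), and 0.0029 and 0.018 with Faminp.284R mouse 3 left out too. In M0 the same omission gave 0.14 for Ifi44, 0.13 for Zbp1 and 0.078 for Ifi204 (lowest -1.53, -0.95 and -0.60), the M0 library alone 0.14, 0.13 and 0.079, and both mice 0.021 for Ifi204. In M2 it gave 0.17 for Ifi27l2a and 0.12 for Ifitm3 (lowest -0.94 and -0.57), and 0.14 for Ifi27l2a without both mice. The change of the Zbp1 difference between M2 and M0 was -0.10 without that M0 library and reached 0.93 without Faminp.254I mouse 2. Over all 46 members more turned: 42 were higher in Faminp.284R in M0 without that library, where 0 were with it, and for the average of Faminp.284R limma-voom gave 24 members higher where edgeR gave 9. The omissions remove the one culture with the highest levels. Depth limited Mx2 and Isg20 in M2 most, whose reads are few.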
